A study of Mus musculus with 4 samples.

Results

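Transcripts of 10 genes of the CD40 and NF-κB pathway (Cd40, Traf1, Nfkb1, Nfkb2, Rel, Relb, Nfkbia, Nfkbie, Nfkbid and Tnfaip3) were followed in mouse splenic B cells of a germinal centre (GC) response. The genes were taken by name from the 32285 genes of the mRNA count matrices, and all 10 were detected in the B cells of both sorts. In the study, CD45.2+ MD4 B cells carrying a BCL2 transgene (BCL2.Tg) and either Dock8wt/wt or Dock8cpm/cpm were transferred together with CD45.1+ Dock8wt/wt MD4 B cells without the transgene into CD45.1+ wild-type recipients, which were immunized with sheep red blood cells coupled to hen egg lysozyme (HEL). MD4 B cells carry an immunoglobulin transgene against HEL, and cpm (captain morgan) is a chemically induced loss-of-function allele of Dock8, a guanine nucleotide exchange factor of the cytoskeleton. On day 8, splenic B cells were labelled with 1 hashtag per mouse, with 3 mice per genotype. HEL-binding CD95+ donor cells were then separated by CD45 allele, and all cells of 1 allele went into 1 single-cell 3′ RNA library. The recipients and donors were given as 8 to 12 weeks old and of both sexes. All CD45.2+ cells of both genotypes carry the BCL2 transgene, which is restricted to B cells, and each sort is 1 library, so that sort, transgene and library cannot be told apart.

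CD40 is a receptor of the tumour necrosis factor family on B cells, and CD40 ligand on T follicular helper cells engages it in the light zone (LZ) of the GC, where B cells compete for help. Adaptors of the TRAF family pass the signal to the canonical NF-κB branch, in which IκB proteins are degraded and release dimers of p50, c-Rel and RelA, and to the non-canonical branch, in which p100 is processed to p52 to pair with RelB. Several inhibitors of the pathway, among them Nfkbia and Tnfaip3, are themselves transcribed under NF-κB. In the dark zone (DZ), GC B cells divide and mutate their antibody genes, and plasma cells (PC) leave the B cell programme to secrete antibody.

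The members lie on 8 chromosomes of the mouse genome (build GRCm38, Ensembl identifiers as in the matrices). The receptor gene Cd40 (ENSMUSG00000017652) spans 165055627 to 165072948 of chromosome 2. Traf1 (ENSMUSG00000026875), an adaptor that binds the tails of receptors of this family together with TRAF2, lies at 34941750 to 34961772 of the same chromosome. Of the Rel family, Nfkb1 (ENSMUSG00000028163) encodes p105 and p50 and lies on chromosome 3 from 135584655 to 135691547. Nfkb2 (ENSMUSG00000025225), for p100 and p52, lies on chromosome 19 from 46304320 to 46312385. Rel (ENSMUSG00000020275), for c-Rel, lies on chromosome 11 from 23736847 to 23770970, and Relb (ENSMUSG00000002983) on chromosome 7 from 19606217 to 19629438. The IκB genes are Nfkbia (ENSMUSG00000021025), for IκBα, on chromosome 12 from 55489410 to 55492647, Nfkbie (ENSMUSG00000023947), for IκBε, on chromosome 17 from 45555703 to 45563169, and Nfkbid (ENSMUSG00000036931), for the nuclear IκBNS, on chromosome 7 from 30421732 to 30428746. Tnfaip3 (ENSMUSG00000019850), which encodes the ubiquitin-editing inhibitor A20, lies on chromosome 10 from 19000910 to 19015657.

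Promoter sequence was examined because some of these genes are known targets of NF-κB. RefSeq windows of 250 bases before to 50 after a transcription start (GRCm38.p6) held 12 windows of 7 members, and Cd40, Nfkb1 and Relb were not in the table. The 10-base κB consensus was searched on both strands. It was present in 7 of the 12 windows, against 5.80% of all 32851 windows. Of the 7 genes, 5 held it (Nfkb2, Rel, Nfkbia, Nfkbid and Tnfaip3), against 6.55% of 27025 genes. Overlapping matches of 1 gene share bases, and windows 2 and 3 of Nfkb2 hold the same site. The member windows had a median GC content of 60.7%, against 52.7% for all windows. A match of letters is a description of the window and not a measured binding site. The stretches below are shown because they hold the matches, in capitals, and the Traf1 stretch because it holds none. They are written 5′ to 3′ on the strand of the gene.
Nfkbia, 250 bases before the start, chr12:55492648-55492897, minus strand: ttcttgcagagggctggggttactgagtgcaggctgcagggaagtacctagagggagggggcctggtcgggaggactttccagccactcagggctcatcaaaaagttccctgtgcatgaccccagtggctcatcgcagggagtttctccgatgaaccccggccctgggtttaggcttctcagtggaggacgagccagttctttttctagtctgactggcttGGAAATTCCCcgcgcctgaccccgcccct
Nfkbid, 250 bases before a start, chr7:30422156-30422405, plus strand: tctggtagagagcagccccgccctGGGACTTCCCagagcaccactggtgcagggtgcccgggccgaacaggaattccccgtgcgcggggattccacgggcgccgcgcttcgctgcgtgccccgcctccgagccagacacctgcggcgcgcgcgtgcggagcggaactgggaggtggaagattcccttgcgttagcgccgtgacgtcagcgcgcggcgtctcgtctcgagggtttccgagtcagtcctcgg
Traf1, 250 bases before the start, chr2:34961773-34962022, minus strand: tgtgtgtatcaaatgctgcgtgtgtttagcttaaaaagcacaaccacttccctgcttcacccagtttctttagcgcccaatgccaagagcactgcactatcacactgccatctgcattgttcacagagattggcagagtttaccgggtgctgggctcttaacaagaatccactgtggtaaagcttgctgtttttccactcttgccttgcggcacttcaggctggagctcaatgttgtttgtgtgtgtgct
Nfkb2, the first match, chr19:46304688-46304717, plus strand: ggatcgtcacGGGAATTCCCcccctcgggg
Nfkb2, the second match of the same window, chr19:46304716-46304745, plus strand: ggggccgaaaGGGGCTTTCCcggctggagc
Nfkb2, match in the windows of later starts, chr19:46305695-46305724, plus strand: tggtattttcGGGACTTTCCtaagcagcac
Rel, 2 matches that overlap, chr11:23771042-23771071, minus strand: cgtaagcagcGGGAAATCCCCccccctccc
Tnfaip3, chr10:19015403-19015432, minus strand: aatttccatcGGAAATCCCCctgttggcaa

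The first base of the match lay 29 bases before the start of Nfkbia, which is the gene start given above. It lay 226 bases before the second of 3 starts of Nfkbid and 12 bases before 1 of 2 starts of Tnfaip3, both of which lie inside the gene as positioned above, and the other windows of these genes held no match.

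The CD45.2 library held 24241 mRNA barcodes and 196679316 unique molecular identifiers (UMIs), and the CD45.1 library 5232 barcodes and 37309131 UMIs. After hashtag assignment and quality filters, 6286 Dock8wt/wt and 202 Dock8cpm/cpm CD45.2+ cells were kept, and 1861 and 1343 CD45.1+ cells from the respective recipients. Of 38 barcodes found in both libraries, 6 were kept in both. The Dock8cpm/cpm CD45.2+ cells were few, and 57.9% of them held a UMI of a Y-linked gene and 60.9% one of Xist, against 3.56% and 97.7% of the Dock8wt/wt CD45.2+ cells. These donor sexes are the reverse of those noted by the study, and the labels of the 2 hashtag groups are used here as given. Genotype was also tested without cells of the other sex, where each mouse kept at least 10 cells. Left out were 24 of 202 Dock8cpm/cpm cells, with at least 3 Xist UMIs and no Y-linked UMI. Also left out were 224 of 6286 Dock8wt/wt CD45.2+ cells, with a Y-linked UMI. No member was called in non-plasma cells by that test. Genotype and donor sex cannot be told apart. Loss of DOCK8 is known to impair the persistence of GC B cells. The group labelled Dock8cpm/cpm was the smaller of the CD45.2+ groups, but its size depended on the hashtag rule. It held 202 cells by the standard call, which set aside 8048 CD45.2 barcodes as doublets. A 3-fold rule gave it 870 cells and hashtags normalized by cell 915, against 7961 and 7687 Dock8wt/wt cells. Whether the labels are exchanged was not tested. An exchange of the 2 hashtag groups would turn every genotype direction given here. A 3′ count does not check the cpm allele: Dock8 in non-plasma cells was 106, 108 and 96.1 CPM (counts scaled to a common total of UMIs per sum) in the Dock8cpm/cpm mice and 110.2, 118 and 105 in the Dock8wt/wt mice (log2 fold change -0.24, edgeR adjusted p = 0.677).

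Cells were clustered without the 10 genes among the clustering features. Clusters were named, as for example LZ1-like, by overlap of their leading genes with the marker lists of the study. Those lists were chosen on these same libraries, so the names are not independent of the data. The LZ1-like cluster was led by Il4i1, Mir155hg, Bcl2a1d and Bcl2a1b and also held Ighd, a gene of naive B cells, among its 10 leading genes. By mean level, 6 of the members were highest in this cluster, as listed below. Leading genes were, for the LZ2-like cluster, the immediate-early genes Egr3 and Egr1 and, for the LZ4-like cluster, Zbtb20 and Efnb1. In the CD45.2+ Dock8wt/wt cells, 13 clusters had at least 20 cells in each of the 3 mice, and levels below are CPM of summed counts per mouse. Because clusters were built from the same cells, differences between them are descriptions with no test, and 2 neighbours in an order are called apart only where the order held in every mouse and the ranges did not overlap. A fall in CPM of a pooled cell class can come from fewer expressing cells or less RNA per cell, which these sums cannot tell apart. CPM is a share of all UMIs, and immunoglobulin genes were among the leading genes of PC2-like and PC3-like cells. Levels in plasma cell-like cells are given with immunoglobulin UMIs in the total, and the part of these UMIs in the low levels was not tested. With immunoglobulin genes taken out of the total, each member peaked in the same cluster. The members' levels are not compared with each other.

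The inhibitor genes Nfkbia, Nfkbie, Nfkbid and Tnfaip3 were highest in the LZ1-like and LZ2-like clusters, as was Cd40 apart from a cluster of low RNA content that lay between them. Cd40, Nfkbie and Nfkbid were lowest in the 3 plasma cell-like clusters. Nfkbia and Tnfaip3 were lowest in PC3-like cells, but Nfkbia in PC1-like and PC2-like cells (114 and 107 CPM) lay above DZ1-like and DZ4-like cells (99.1 and 90.4 CPM), and Tnfaip3 in PC2-like cells (6.95 CPM) lay above DZ4-like cells (6.53 CPM). By mean CPM, 7 of the 10 members peaked in an LZ-like cluster: Cd40, Traf1, Relb, Nfkbia, Nfkbie and Tnfaip3 in LZ1-like and Nfkbid in LZ2-like cells. The share of all genes with such a peak was not taken, so the count has no background to be set against. The other 3, Nfkb1, Nfkb2 and Rel, peaked in the cluster of low RNA content. That cluster had a median of 1770 UMIs per cell, 0.276 of the median of its library, and 5.78% mitochondrial UMIs, and was not given a cell type name here. Without it, Nfkb2 was highest in LZ1-like, Rel in LZ2-like and Nfkb1 in EarlyGC2-like cells.

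**Figure D1:**
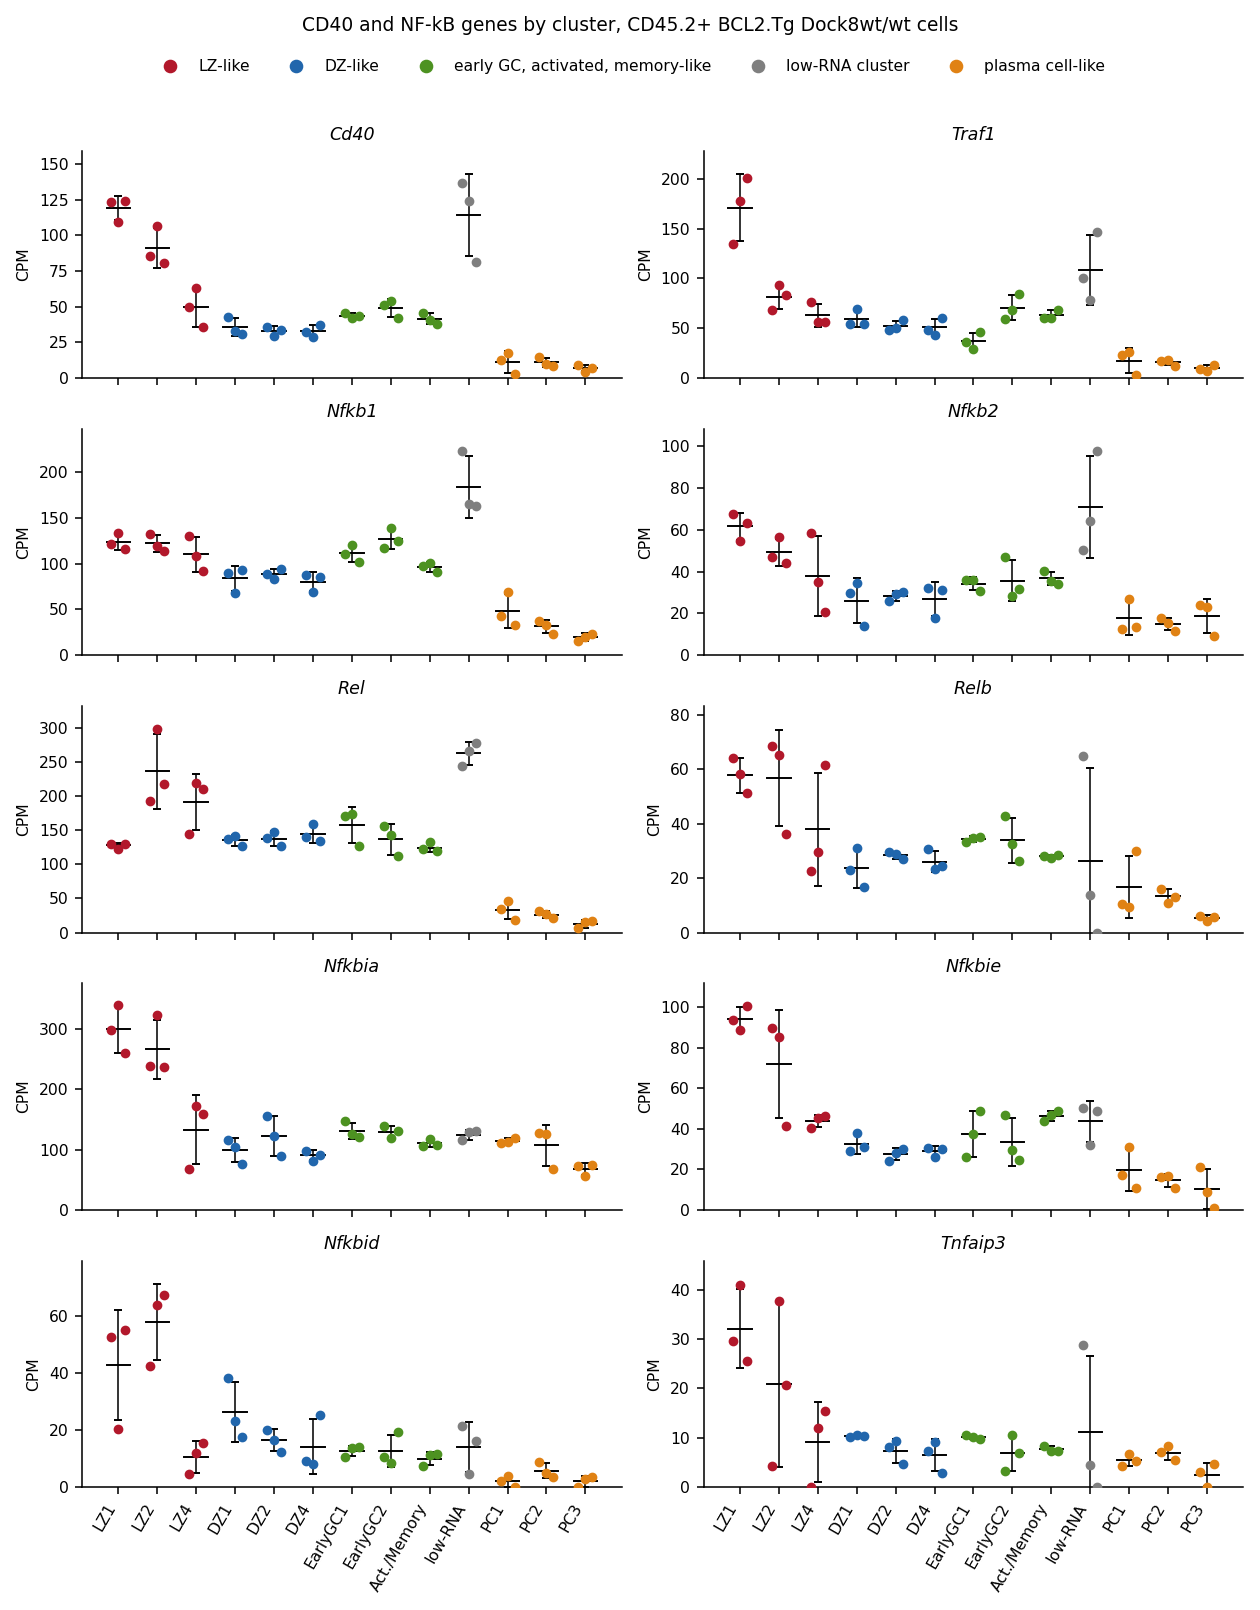
CPM (vertical axes, each starting at 0 and with its own scale) of the 10 genes in 13 clusters of CD45.2+ BCL2.Tg Dock8wt/wt cells (horizontal axes), with 1 point per mouse, a bar at the mean and error bars of 1 SD (n = 3). Cd40 fell from 119 CPM in LZ1-like to 6.77 CPM in PC3-like cells, and Rel was lower in LZ1-like than in LZ2-like cells in every mouse.

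For the receptor gene Cd40, the 3 mice gave 123, 109 and 124 CPM in LZ1-like cells, 85.4, 107 and 80.4 in LZ2-like cells, and 49.5, 62.9 and 35.9 in LZ4-like cells. The LZ2-like level was above the LZ4-like level in 3 of 3 mice with no overlap, whereas LZ1-like (119 ± 8.33 CPM, SD, n = 3) and low-RNA cells (114 ± 28.8) did not differ beyond their spread. The 3 DZ-like clusters lay between 32.7 and 35.4 CPM and did not differ from each other beyond their spread. DZ4-like cells (32.7 ± 4.17 CPM) were apart from PC1-like cells (11 ± 7.57 CPM), and PC3-like cells were lowest (6.77 ± 2.34 CPM), 17.6-fold below LZ1-like cells. As a share of cells with a Cd40 UMI after thinning to 2000 UMIs per cell, LZ1-like cells reached 19.98% ± 1.33, DZ2-like cells 6.57% ± 0.866, and the plasma cell-like clusters 2.28% ± 1.46 (PC1-like), 2.21% ± 0.785 (PC2-like) and 1.35% ± 0.613 (PC3-like; SD, n = 3 mice). The 48 T cell-like cells with that depth had 0.817% ± 0.715. They held B cell RNA (a Cd79a UMI in 65.7% ± 3.31 of them), so they are not a background free of Cd40 and the low shares of plasma cell-like cells were not read as expression or as its absence. Before thinning the shares were 44.7% of LZ1-like, 28.1% of DZ2-like, 7.06% of PC3-like and 3.51% of T cell-like cells, at median depths of 6252, 11906, 10744 and 3337 UMIs.

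The adaptor gene Traf1 was 135, 178 and 201 CPM in LZ1-like cells and 68.4, 92.8 and 83.0 CPM in LZ2-like cells. LZ1-like cells were thus highest in each mouse, with 171 ± 33.6 CPM, against 36.8 ± 8.75 CPM in EarlyGC1-like cells and 9.68 ± 2.88 CPM in PC3-like cells. Among neighbours in the order of means, only EarlyGC1-like and PC1-like cells (17.2 ± 12.6 CPM) were apart.

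Of the Rel family genes, Nfkb1 differed least between LZ2-like and DZ2-like cells by mean CPM (1.38-fold). The ratio was 1.72 for Rel, 1.73 for Nfkb2 and 1.99 for Relb, beside 1.57 for Traf1 and 2.77 for Cd40. Nfkb1 lay between 80.4 and 127 CPM in the 9 clusters of GC, early, activated and memory-like cells other than the low-RNA cluster, with 124 ± 8.66 CPM in LZ1-like and 127 ± 11.1 CPM in EarlyGC2-like cells. The low-RNA cluster (223, 165 and 163 CPM) was apart from the next in the order. PC3-like cells were lowest (19.5 ± 4.22 CPM) and apart from PC2-like cells. No neighbours among the 9 clusters were apart. LZ1-like cells (122, 133 and 116 CPM) still lay above DZ4-like cells (87.8, 68.5 and 84.8 CPM) without overlap. Nfkb2 was 67.4, 54.7 and 63.1 CPM in LZ1-like cells, and 26.1 to 28.4 CPM on average in the DZ-like clusters. Its lowest level was 15.0 ± 3.02 CPM in PC2-like cells, and its range over clusters (4.72-fold) was narrow beside that of Cd40.

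Rel, for c-Rel, had a pattern of its own within the light zone. LZ2-like cells gave 192, 299 and 218 CPM and LZ4-like cells 144, 219 and 210.3 CPM, but LZ1-like cells only 129.8, 123 and 130.1 CPM. The LZ1-like level was thus 0.540 of the LZ2-like level and near that of the DZ-like clusters (135 to 145 CPM on average), although Cd40 and Traf1 were highest there. Plasma cell-like clusters held 12.7 to 32.9 CPM of Rel, and the step from Activated_Memory-like cells (125 ± 6.75 CPM) to PC1-like cells was apart in all mice. Relb was 57.8 ± 6.42 CPM in LZ1-like, 56.6 ± 17.7 CPM in LZ2-like and 5.39 ± 0.921 CPM in PC3-like cells. LZ1-like and LZ2-like cells did not differ in Relb beyond the spread between mice.

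Of the IκB genes, Nfkbia was 297, 339.9 and 260.2 CPM in LZ1-like, 239, 322 and 236 in LZ2-like and 67.5, 172 and 159 CPM in LZ4-like cells. LZ2-like cells were above LZ4-like cells in 3 of 3 mice with no overlap (2.002-fold), and from LZ4-like down to DZ4-like cells (90.4 ± 8.30 CPM) no neighbours in the order were apart. PC1-like cells, with 114 ± 4.59 CPM of Nfkbia, lay among these, and the lowest level was 67.6 ± 9.96 CPM in PC3-like cells. The range of Nfkbia over clusters (4.42-fold) was the narrowest of the 10 genes. Nfkbie was 94.3 ± 5.89 CPM in LZ1-like and 72.2 ± 26.7 CPM in LZ2-like cells, and 27.4 to 32.7 CPM on average in DZ-like clusters.

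Nfkbid differed most between light zone clusters. Its level was 42.7, 64.0 and 67.4 CPM in LZ2-like and 4.50, 11.9 and 15.4 CPM in LZ4-like cells (5.47-fold), and 52.6, 20.5 and 55.2 CPM in LZ1-like cells. DZ1-like cells held 26.4 ± 10.7 CPM, and plasma cell-like clusters 2.06 to 5.86 CPM. The PC1-like and PC3-like sums each included a mouse with 0 counts. Tnfaip3 was 29.6, 41.0 and 25.6 CPM in LZ1-like and 4.27, 37.6 and 20.7 CPM in LZ2-like cells, and 10.4 ± 0.236 CPM or less on average in the DZ-like clusters. LZ1-like cells were above LZ2-like cells in Tnfaip3 in 3 of 3 mice, but the ranges overlapped.

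The order of the LZ2-like and LZ4-like clusters was looked at again in the CD45.1+ cells of 6 mice. These cells are a separate library that did not enter the levels above, although the clusters were built on both libraries. They are not all from other animals, since the 3 mice of the Dock8wt/wt group also gave the CD45.2+ levels above. Cd40 was higher in LZ2-like than in LZ4-like cells in 6 of 6 mice (93.5 ± 9.81 against 64.0 ± 20.7 CPM), as were Nfkbie (76.6 ± 11.4 against 54.4 ± 18.5 CPM) and Nfkbid (54.7 ± 24.3 against 12.4 ± 8.53 CPM, 4.40-fold). Nfkbia, Nfkb2 and Relb were higher in 5 of 6, and Rel, Traf1 and Tnfaip3 in 4 of 6 mice. Nfkb1 was higher in only 1 of 6 mice (110.1 ± 22.7 against 121 ± 10.2 CPM), while it was higher in 3 of 3 CD45.2+ Dock8wt/wt samples. LZ1-like cells were too few in the CD45.1+ fraction for this comparison, with 4 to 22 cells per mouse.

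**Figure D2:**
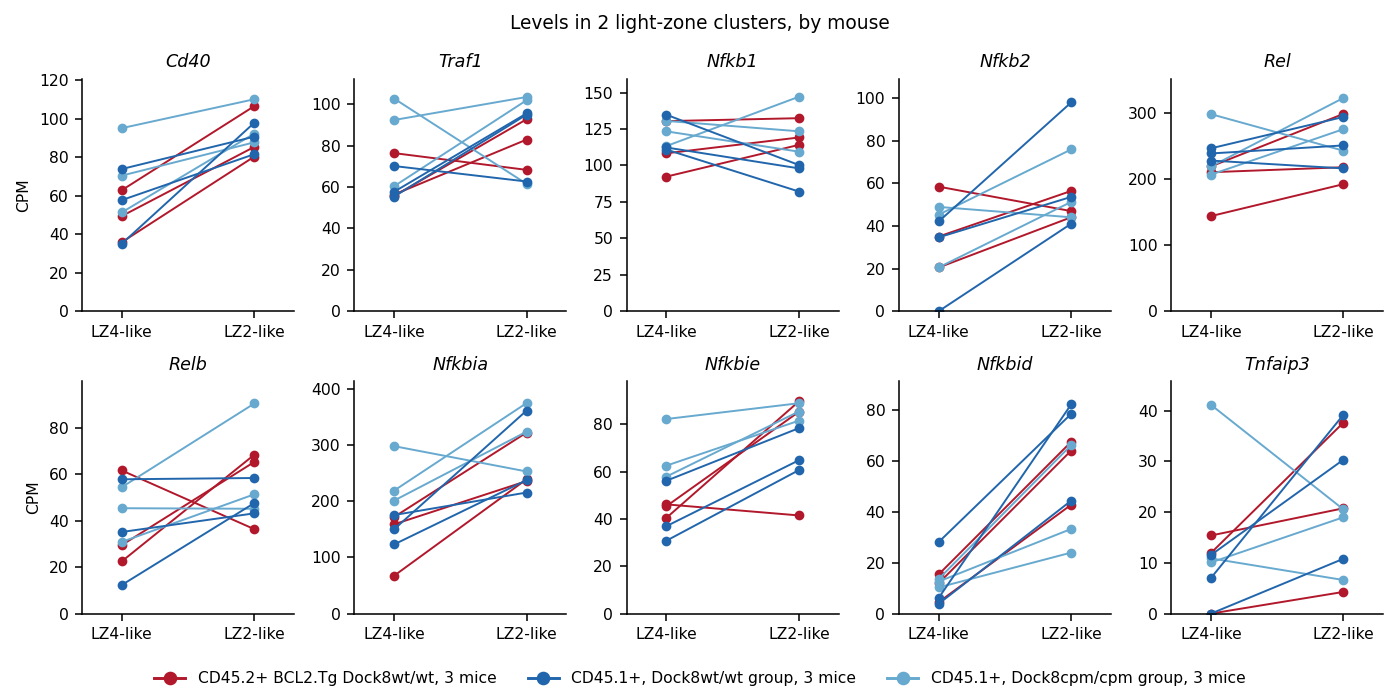
CPM of the 10 genes in LZ4-like and LZ2-like cells, with 1 line per mouse and sort (9 lines from 6 mice), and a vertical axis that starts at 0 in each panel. Nfkbid rises from LZ4-like to LZ2-like cells in all 9 lines, whereas the lines of Nfkb1 go both ways.

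The patterns of the members over the 39 combinations of 13 clusters and 3 mice were compared with all genes of at least 20 CPM by Pearson's r of log2(CPM + 10), as a description, since the points share libraries, mice and depth. Cd40 was most like Lyst (r = 0.94), Il4i1 (0.93) and Cd82 (0.93), and the genes most like Nfkbie were Il4i1 (0.87), Cd82 and Cd83. Il4i1 also led for Nfkbia (0.82), and Bcl2a1b for Nfkbid (0.85). Nfkb1 was most like the B cell transcription factor gene Bcl11a (0.97), and Rel most like Pax5 (0.97), which defines B cell identity and is shut off in plasma cells. For Nfkb2 (0.86) and Traf1 (0.92) the closest gene of the whole table was Cd40. For Tnfaip3 it was Nfkbia (0.73), and for Relb it was Max (0.81).

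The first comparison asked whether DOCK8-deficient B cells differ in these transcripts from Dock8wt/wt B cells in the CD45.2+ fraction. No member passed the test in any of 4 cell classes by edgeR, nor by DESeq2 among the members to which it gave an adjusted p (2 in non-plasma cells, 7 in LZ-like, 10 in DZ-like and 2 in early GC, activated and memory-like cells). In non-plasma B cells (LZ-like, DZ-like, early GC, activated and memory-like cells), 0 of 10 members were called, and 0.283% of 10233 tested genes were. The median log2 fold change was 0.03 over the members and -0.02 over all genes. In a simulation on these libraries, 48% of genes changed 2-fold and 78% of those changed 4-fold were recovered for this comparison. It made 0 false calls, and small differences were beyond reach. Fitted fold changes here lie below the ratios of CPM by 0.12 on the log2 scale because of the normalization factors.

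Cd40 was 50.3, 37.1 and 33.6 CPM in the Dock8cpm/cpm mice and 47.1, 48.1 and 42.7 CPM in the Dock8wt/wt mice in non-plasma cells. The groups overlapped (log2 -0.35, SE 0.20, 95% interval -0.74 to 0.04, edgeR adjusted p = 0.694). Nfkb1 was 83.9, 94.4 and 88.1 against 100.4, 102 and 95.6 CPM, with each Dock8cpm/cpm mouse below each Dock8wt/wt mouse (log2 -0.29, SE 0.14, edgeR unadjusted p = 0.0472, adjusted p = 0.601). Nfkbia was 179, 101 and 189 against 139, 145 and 115 CPM, so that mouse 2 of the Dock8cpm/cpm group stood below and the other 2 above all controls (log2 0.18, 95% interval -0.12 to 0.48). Under a 3-fold hashtag rule, the cells of the other sex were 103 of 870 Dock8cpm/cpm and 542 of 7961 Dock8wt/wt CD45.2+ cells. With that rule and these cells left out, an alternative chosen after seeing the data, Nfkbia was 187, 179 and 182 against 139, 143 and 120 CPM. It was then called (log2 0.39, edgeR adjusted p = 0.0289), 1 of 10 members against 152 of 10571 genes.

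In LZ-like cells, where mouse 2 of the Dock8cpm/cpm group had 9 cells by the standard hashtag call, assignment by a 3-fold rule on hashtag counts gave 97, 23 and 87 cells in the Dock8cpm/cpm mice and 209, 656 and 210 in the Dock8wt/wt mice. With these cells 0 of 10 members were called, beside 0.281% of 7461 genes. The simulation of this comparison recovered 65% of genes changed 2-fold and 94% of those changed 4-fold, with 13 false calls, beside 21 genes called in the data. Cd40 was 93.2, 77.6 and 97.6 CPM against 94.1, 79.6 and 94.0 CPM, which left a difference of -0.01 on the log2 scale with a 95% interval of -0.34 to 0.33. Nfkbid was 18.6, 51.7 and 33.1 CPM against 45.05, 31.9 and 49.9 CPM, overlapping between genotypes (log2 -0.56, SE 0.30, edgeR adjusted p = 0.688). Traf1 overlapped too, with 61.0, 149 and 117 CPM against 108, 84.2 and 132 CPM (log2 -0.20, 95% interval -0.63 to 0.23). Nfkbie was 74.5, 104 and 92.4 CPM against 79.3, 59.2 and 69.7 CPM (log2 0.26, 95% interval -0.11 to 0.63).

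In DZ-like cells, 0 of 10 members were called, beside 0.0452% of 8854 genes. Neither Cd40 (log2 -0.93, SE 0.46, edgeR adjusted p = 0.853) nor Nfkbid (edgeR adjusted p = 0.791) passed. The Nfkbid value rests on 1, 0 and 1 counts in the Dock8cpm/cpm mice, against 105, 71 and 77 counts in the controls, and Cd40 on 1, 1 and 7 counts. In early GC, activated and memory-like cells 0 of 10 members were called, beside 0.342% of 8773 genes. Cd40 was 8.76, 56.6 and 7.66 CPM against 46.0, 44.0 and 40.0 CPM, low in 2 of the 3 Dock8cpm/cpm mice and highest of all in the other (log2 -1.39, SE 0.44, 95% interval -2.26 to -0.52, edgeR adjusted p = 0.237). The cluster shares of this class differed by genotype. EarlyGC1-like cells were 69.5% of the Dock8cpm/cpm and 37.9% of the Dock8wt/wt cells, and Activated_Memory-like cells 19.5% and 45.4%. Mean Cd40 in the Dock8wt/wt CD45.2+ cells was 43.5 CPM in EarlyGC1-like and 41.3 CPM in Activated_Memory-like cells. The part of these shares in the Cd40 difference was not tested. The Cd40 value rests on 1, 6 and 2 counts in 19, 17 and 46 cells, and with the 3-fold hashtag rule the Cd40 levels were 38.8, 42.4 and 31.0 CPM against 44.4, 43.6 and 38.7 CPM.

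**Figure D3:**
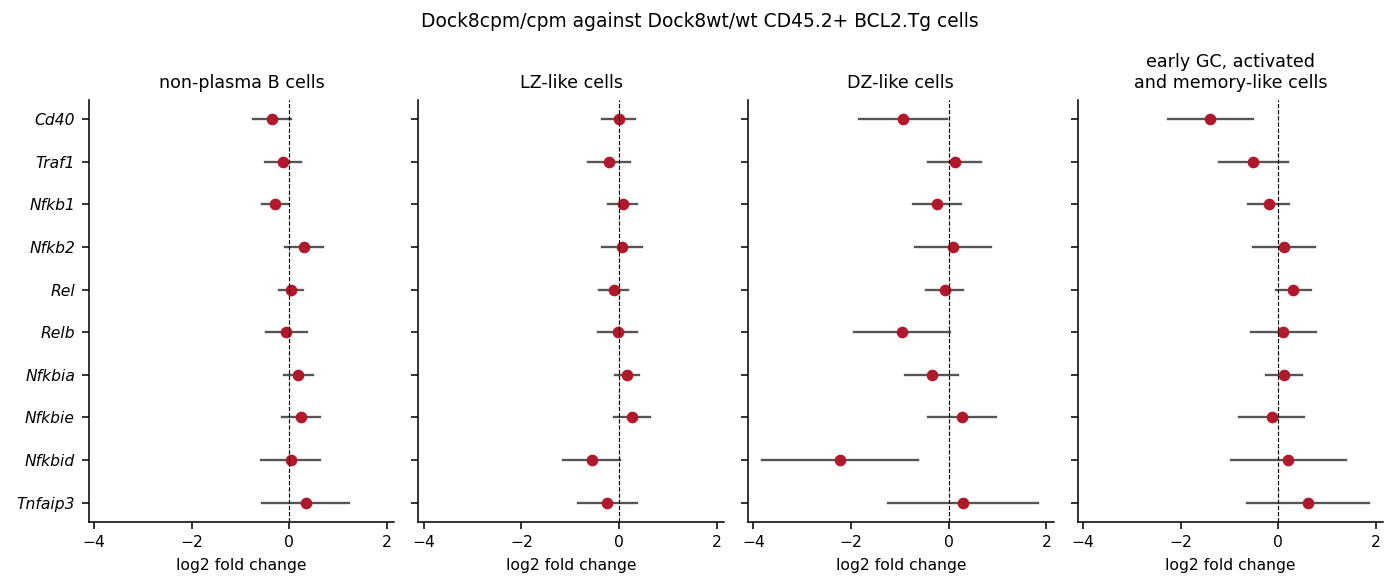
Log2 fold change of Dock8cpm/cpm over Dock8wt/wt CD45.2+ BCL2.Tg cells (shared horizontal axis) for the 10 genes (vertical axis) in 4 cell classes, as edgeR estimates (points) with 95% intervals (lines, 3 against 3 mice). Intervals are widest in DZ-like cells, where Nfkbid spans -3.82 to -0.62, and no gene passed the adjusted threshold.

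The second comparison asked whether CD45.1+ Dock8wt/wt cells differ by the genotype of the CD45.2+ cells in the same recipient. In non-plasma cells 0 of 10 members were called, and 0% of 8660 genes were (609 genes and 2 members at an unadjusted p under 0.05, and 0 genes by DESeq2). Nfkbia was 192, 174 and 231 CPM in recipients of Dock8cpm/cpm cells and 155, 183 and 142 CPM in recipients of Dock8wt/wt cells (log2 0.29, SE 0.11, edgeR adjusted p = 0.622). In LZ-like cells 0 of 10 members were called, beside 0.0156% of 6403 genes. Nfkbid was 40.6, 19.4 and 22.4 CPM against 55.5, 28.3 and 71.0 CPM, overlapping between groups (log2 -0.82, SE 0.29, 95% interval -1.39 to -0.25, edgeR adjusted p = 0.821), and it was called without mouse 2 of the Dock8wt/wt group (log2 -1.15, edgeR adjusted p = 0.0334). LZ4-like cells, where Nfkbid was low, were 46.9%, 29.2% and 47.8% of the LZ-like cells in recipients of Dock8cpm/cpm cells and 35.5%, 38.9% and 26.7% in recipients of Dock8wt/wt cells, so that the mouse left out had the highest share of its group. The part of this make-up in the Nfkbid difference was not tested. Nfkbie was 75.5, 85.1 and 73.9 CPM against 64.3, 49.6 and 60.4 CPM, with no overlap (log2 0.43, SE 0.19, edgeR adjusted p = 0.908). The difference between sorts was also compared between the recipient groups in non-plasma cells, and 0 of 10 members were called, beside 0.0319% of 9414 genes. Its lowest member was Cd40 (log2 -0.52, 95% interval -0.99 to -0.05, edgeR adjusted p = 0.781).

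The third comparison set CD45.2+ BCL2.Tg against CD45.1+ cells within the 3 mice of the Dock8wt/wt group. In LZ-like cells 2 of 10 members were called, beside 9.49% of 7548 genes, and in DZ-like cells 2 of 10, beside 6.44% of 9453 genes. The same genes, Traf1 and Rel, were called in both classes, Rel lower in CD45.2+ cells in both, and Traf1 higher in LZ-like but lower in DZ-like cells. In early GC, activated and memory-like cells 0 of 10 were called, beside 3.85% of 9428 genes. The median log2 difference over the members was 0.11 in LZ-like and -0.29 in DZ-like cells, against -0.0026 and -0.0035 over all genes. The simulation for LZ-like cells recovered 78% of genes changed 2-fold and 97% of those changed 4-fold, with 3 false calls.

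Traf1 in LZ-like cells was 62.1, 82.2 and 105 CPM in the CD45.1+ and 108, 94.0 and 133 CPM in the CD45.2+ cells of mice 1 to 3, higher in 3 of 3 mice (log2 0.43, SE 0.14, edgeR adjusted p = 0.0341). In DZ-like cells it was 60.9, 76.4 and 85.5 CPM against 49.7, 53.2 and 57.6 CPM, lower in 3 of 3 mice (log2 -0.46, SE 0.13, edgeR adjusted p = 0.00839). The make-up of the LZ-like class moved with the sort: LZ1-like cells, where Traf1 was highest, were 57.0%, 20.9% and 41.7% of the LZ-like CD45.2+ cells and 10.0%, 1.92% and 12.5% of the LZ-like CD45.1+ cells. Within LZ2-like cells alone the Traf1 difference was -0.07 (edgeR adjusted p = 0.960) and within LZ4-like cells alone 0.04 (adjusted p = 0.980), while LZ1-like cells alone could not be fitted. Within DZ1-like, DZ2-like and DZ4-like cells alone Traf1 was -0.54, -0.45 and -0.32 on the log2 scale, on the same side as in the class but not called. Neither Traf1 call was made by DESeq2 (adjusted p = 0.825 in LZ-like and 0.270 in DZ-like cells), the LZ-like call was lost without any 1 of the 3 mice, and the DZ-like call without mouse 3 (adjusted p = 0.310).

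Rel in LZ-like cells was 237, 275 and 197 CPM in CD45.1+ and 147, 222 and 176 CPM in CD45.2+ cells (log2 -0.32, SE 0.11, edgeR adjusted p = 0.0339). In DZ-like cells it was 183, 156 and 177 against 139, 149 and 128 CPM (log2 -0.31, SE 0.09, edgeR adjusted p = 0.0155). In both classes Rel was lower in the CD45.2+ sample in 3 of 3 mice. Rel in LZ1-like cells was 0.540 of its level in LZ2-like cells, and LZ1-like cells had a larger share in the CD45.2+ fraction. The part of this make-up in the Rel difference was not tested. Within LZ2-like cells the Rel difference was -0.07 and within LZ4-like cells -0.25, and within the 3 DZ-like clusters it was -0.22 to -0.37, none of them called. The LZ-like Rel call was lost without mouse 1 or mouse 2, the DZ-like call without mouse 1 or mouse 3, and both by DESeq2 (adjusted p = 0.792 and 0.280).

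**Figure D4:**
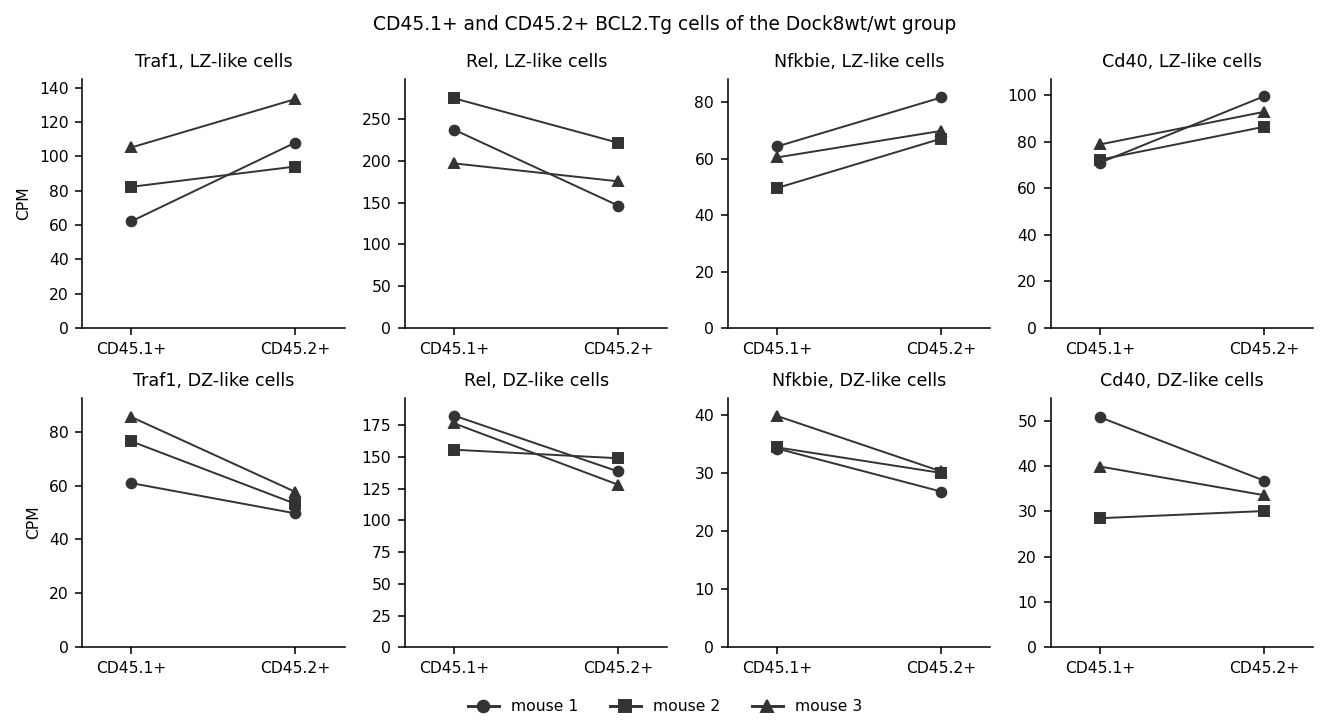
CPM of Traf1, Rel, Nfkbie and Cd40 in CD45.1+ and CD45.2+ BCL2.Tg cells of the Dock8wt/wt group (1 line per mouse, n = 3), in LZ-like cells (upper row) and DZ-like cells (lower row), with vertical axes that start at 0. Traf1 and Nfkbie rise in the LZ-like cells and fall in the DZ-like cells of all 3 mice, and Rel falls in both.

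The other members did not pass the test between sorts as reported. Among the alternatives in LZ-like cells, Nfkbie was called once, with log-normalized counts for clustering (log2 0.49, edgeR adjusted p = 0.0384), and Nfkbid once, with hashtags normalized by cell (log2 -0.62, edgeR adjusted p = 0.0246). Cd40 in LZ-like cells was 71.0, 72.3 and 78.8 CPM in CD45.1+ and 99.5, 86.4 and 92.8 CPM in CD45.2+ cells, with no overlap (log2 0.36, SE 0.15, edgeR adjusted p = 0.145). In DZ-like cells it was 50.8, 28.5 and 39.9 against 36.8, 30.1 and 33.6 CPM (log2 -0.24, adjusted p = 0.483). Nfkbie in LZ-like cells was 64.3, 49.6 and 60.4 CPM in CD45.1+ and 81.7, 67.1 and 69.9 CPM in CD45.2+ cells (log2 0.38, SE 0.17, edgeR adjusted p = 0.168). Nfkbia in DZ-like cells was 145, 105 and 136 against 133, 107 and 86.7 CPM (log2 -0.27, SE 0.10, edgeR adjusted p = 0.0985), and it was called without mouse 2 (adjusted p = 0.0279). When the sort difference in LZ-like cells was tested against that in DZ-like cells, 0 of 10 members were called, beside 0.0959% of 8346 genes. Traf1 came nearest, with 0.84 on the log2 scale (95% interval 0.45 to 1.23, edgeR adjusted p = 0.0599).

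Of the 47 other pathway genes listed (adaptors and ubiquitin ligases, IκB kinase and CARMA1 complexes, other Rel and IκB proteins, other negative regulators and target genes), 41 to 45 were tested in each comparison. In the comparisons of genotype, of partner genotype and of the difference between groups 0 were called. Between sorts in LZ-like cells, 9 of 45 were higher and 2 lower in CD45.2+ cells by edgeR, beside 9.49% of all genes called in either direction, with a median log2 difference of 0.04. By DESeq2, 0 of 45 were higher and 1 was lower (Cd86). The target genes held 7 of the higher and both of the lower ones, out of 18. Ccr7 (log2 2.47, SE 0.50), the chemokine receptor that draws B cells toward T cells, Batf (1.18, SE 0.24), Irf4 (1.12, SE 0.26), which drives plasma cell fate, and Bcl2a1d (0.68, SE 0.18), a survival gene of the Bcl2 family, were higher, as was Malt1 (0.66, SE 0.13), 1 of 3 genes of the CARMA1 complex. Cd86 (-1.003, SE 0.13), a costimulatory ligand, and the activation marker Cd83 (-0.27, SE 0.09) were lower (edgeR, adjusted p of 0.0215 for Cd83 and smaller for the others named here). In DZ-like cells 0 of 44 were higher and 3 were lower, a share near the 6.44% of all genes called. They were Bcl2a1b (-0.56, SE 0.09), Cd83 (-0.48, SE 0.09) and Cd86 (-0.59, SE 0.13), of which DESeq2 called Bcl2a1b and Cd83. Bcl2a1d is also a leading gene of the LZ1-like cluster, whose share differed between the sorts, and the part of cluster shares in the target gene differences was not tested.

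T cell-like cells made up a cluster of 114 cells, of which 64 were from the CD45.2 library. It was led by Ccl5 and T cell receptor genes, with the cytotoxic cell genes Cd8b1 and Nkg7 among its leading genes, whereas CD40 ligand is known mainly from helper T cells. Their Cd40lg counts were 4 in the CD45.2 and 5 in the CD45.1 library, and Cd40 counts 3 and 0. In the CD45.2 library 65.7% ± 3.31 of the Dock8wt/wt T cell-like cells (mean over 3 mice, thinned) also held a UMI of the B cell gene Cd79a, against 5.78% ± 5.07 in the CD45.1 library, so that cluster held B cell RNA in the CD45.2 library and entered no test.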

How the data were processed

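Single-cell 3′ mRNA and hashtag libraries of the CD45.2+ and CD45.1+ sorts were used. The authors aligned reads with Cell Ranger 5.0.1 to mm10, as the processing notes list, and deposited unnormalized UMI counts per gene or hashtag and barcode. The depth was 196679316 mRNA UMIs for CD45.2 and 37309131 for CD45.1, and unused columns of other samples numbered 0. Barcodes were matched between libraries and assigned to mice with HTODemux (Seurat 5.3.0, quantile 0.99). Doublets across hashtags (8048 and 1562) were removed, and no other doublet caller was run. Cells with under 10% mitochondrial UMIs and 100 to 5500 genes were kept, normalized with SCTransform (3000 variable genes, without the 10 members and sex-linked genes), and clustered on 30 components at resolution 1.2. A cluster took the name of the study's marker list with most genes among its 50 leading genes. Nfkbia was dropped from those lists. Names were rebuilt here and can differ from those of the study.

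Counts were summed per mouse and cell class, and tested across mice with edgeR 4.0.16 (quasi-likelihood, TMM, filterByExpr, Benjamini-Hochberg at 0.05 over all genes). The mouse, a shared recipient of both sorts by its hashtag number, was a block in comparisons between sorts. Alternatives were DESeq2 1.42.0, other filters, hashtag rules, resolutions and clustering features, and leaving out each mouse. Intervals are 95%. The tests were tried on simulated data with known changes. Shares of cells with a UMI were computed after thinning to 2000 UMIs, which leaves out shallower cells (108 of 194 low-RNA cells of the CD45.2+ Dock8wt/wt mice, and 9 of 57 T cell-like cells). Genes named are the 10 members, Dock8, other pathway genes called in a comparison (up to 5 in each direction, by p), and the 3 genes most like each member. Members, lists and tests were chosen with earlier results of these data known.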

Additional observations from a re-analysis of the deposited data

Results flagged for a closer look

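In the Dock8wt/wt group, 3 genes moved in opposite directions between the sorts in all 3 mice, higher in CD45.2+ than in CD45.1+ cells among LZ-like cells and lower among DZ-like cells. The difference between the classes in the sort difference was 0.84 on the log2 scale for Traf1, 0.67 for Nfkbie and 0.35 for Nfkb1. Tested with edgeR over 8346 genes, the adjusted p was 0.0599 for Traf1, 0.374 for Nfkbie and 0.629 for Nfkb1, so none of these passed. The LZ-like class held a larger share of LZ1-like cells in the CD45.2+ than in the CD45.1+ fraction, as given above. The part of this make-up in these differences was not tested. Over the 6 mice of the CD45.1+ fraction, 40 combinations of gene and cell class were checked for a mouse far from the others, and 0 passed Dixon's critical value at the 95% level.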

How the results depend on the processing

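Across 133 results there were 2051 values under other settings. Of these, 1920 kept their side of the threshold or stayed within 1.5 times, and 88 moved. Another 36 lost a call, 6 gained one and 1 called member reversed. Members that were not called did not always keep their direction. For genotype in non-plasma cells, Cd40 ran from -0.53 to 0.10 and Nfkb1 from -0.34 to 0.18 on the log2 scale. The reversal was Traf1 in LZ-like cells of CD45.2 BCL2-transgenic against CD45.1 wild-type cells, at -0.073 on the log2 scale in LZ2-like cells alone. The 2 members called between sorts in LZ-like cells became 0 with DESeq2, without the filter on low counts, with stricter cell quality, without the replicate block, and in LZ2-like or LZ4-like cells alone (fewer cells). They became 1 with the 3-fold hashtag rule and with members kept in clustering, and 0 to 1 when a mouse was left out. The 2 called in DZ-like cells became 0 with DESeq2, with hashtags normalized by cell, and in DZ1-like, DZ2-like or DZ4-like cells alone. They became 1 with the 3-fold rule, with log-normalized clustering and without the replicate block, and 0 to 3 when a mouse was left out. The cause was not tested where no construction shows it. The partner comparison in LZ-like cells gave 0 to 1 when a mouse was left out, and the comparison of sort differences between LZ-like and DZ-like cells gave 1 member (Traf1, edgeR adjusted p = 0.0495) at resolution 0.9. The genotype comparison in non-plasma cells gave 1 member, Nfkbia, with the 3-fold rule and cells of the other sex left out, a setting chosen after seeing the data. Members highest in an LZ-like cluster numbered 6 to 10 under all settings, against 7. The setting of CD45.1+ cells held only 5 clusters, without the LZ1-like and low-RNA clusters, against 13 as reported, so its count is not like the others. The cluster of the peak also moved: with the 3-fold rule Cd40 peaked in the low-RNA cluster and Nfkbia in LZ2-like cells. Counts of all genes called moved more. For genotype they ran from 8 to 166 in non-plasma cells (29 as reported, 96 by DESeq2), 6 to 151 in LZ-like (21), 1 to 32 in DZ-like (4) and 5 to 118 in early GC, activated and memory-like cells (30). Between partners they ran from 0 to 55 (0) and, in LZ-like cells, from 0 to 14 (1). Between sorts they ran from 77 to 806 in LZ-like (716, 135 by DESeq2), 84 to 616 in DZ-like (609, 173 by DESeq2) and 185 to 597 in early GC, activated and memory-like cells (363). For the difference between groups they ran from 1 to 37 (3), and for the comparison of LZ-like with DZ-like cells from 0 to 9 (8). The planned removal of cells with a UMI of the other sex was not run as written, since the donor sexes in the counts were the reverse of those it assumed, and LZ-like cells by genotype were fitted with the 3-fold rule throughout, because 1 mouse had under 10 cells otherwise. Sums of under 10 counts in Dock8cpm/cpm mice limit what DZ-like, early GC and memory-like cells can show.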
